A study of Drosophila melanogaster with 5 samples.

Results

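The cytochrome bc1 complex, or Complex III, is the stretch of the mitochondrial respiratory chain that takes electrons from ubiquinol and hands them to cytochrome c while pumping protons across the inner membrane. Its mRNAs were followed here in developing flight muscle of Drosophila melanogaster, with or without RNAi against the transcription factor M1BP. The genes described are 10 of the 17494 genes in the count table. Of these, 8 encode structural subunits (UQCR-C1, UQCR-C2, UQCR-Q, UQCR-14, UQCR-11, UQCR-6.4, RFeSP and Cyt-c1) and 2 encode proteins that the study lists as Complex III assembly factors (CG4908 and CG17734). They were picked by symbol with results of these same libraries known, and the 2 assembly genes chosen are those whose measured values passed the thresholds below. The contrast of M1BP RNAi with WT is therefore given for them as a description. The calls that they received in the fit over all genes are stated as such and support nothing.

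All libraries came from dissected indirect flight muscles of pupae at 48 h after puparium formation (APF), reared at 25 °C, with 6 to 8 pupae pooled per library. The WT group (replicates 1, 2 and 3) carried the Mef2-GAL4 driver without an RNAi transgene, per the study's methods. The M1BP RNAi group (replicates 2 and 3) carried the same driver with a transgene expressing RNAi against M1BP, from 1 RNAi line, so effects of M1BP loss and of that line cannot be told apart. Mef2-GAL4 is a muscle driver that is on from the myoblast stage, and the sex of the pupae is not given in the labels. The study's methods describe its replicates in general as independent biological ones, while the labels do not say whether these libraries came from separate crosses, so p-values measure the spread between these libraries. In such bulk samples fewer cells of a type and less RNA per cell cannot be told apart.

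Complex III works as a dimer. In each monomer, cytochrome b (encoded by mitochondrial DNA), cytochrome c1 (Cyt-c1) and the Rieske iron-sulphur protein (RFeSP) carry the electrons. The pair of core proteins, UQCR-C1 and UQCR-C2, forms the large part that projects into the matrix, and the remaining small subunits surround the membrane part. In yeast and mammals Bcs1, the protein that CG4908 encodes in the fly annotation, moves the folded Rieske protein across the inner membrane late in assembly. CG17734 encodes a protein of the HIG1 family of small inner membrane proteins. Flight muscle is among the tissues richest in mitochondria.

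The libraries held between 41676901 and 57514444 counts. Normalised counts, used below, are counts divided by a size factor for each library, and values are given in the order of the replicate numbers. M1BP itself had 666, 673 and 642 normalised counts in WT, against 410 and 456 under M1BP RNAi, so the groups did not overlap. It was lower by DESeq2 (log2 fold change -0.61, SE 0.14, adjusted p 1.04e-04), and the call was lost in each of the 5 fits that left out 1 library, with an adjusted p between 0.0135 and 0.181. All 9 flight muscle markers were present and 0 of them were called. Their summed normalised counts ranged from 2784542 to 3812491 in WT and from 2517359 to 3019981 in M1BP RNAi. M1BP RNAi replicate 2 stood apart in 8 testis genes, which summed to 2558 normalised counts there, to 100.1 in M1BP RNAi replicate 3 and to between 16.7 and 63.9 in WT, and 2 of the 8 were called higher. Of the markers of fat body, neurons, haemocytes and trachea 0 were called. The 4 fat body markers summed to between 6562 and 14061 in WT and to 15131 and 14630 in M1BP RNAi. The sums of the other sets were lower in both M1BP RNAi libraries than in every WT library, as were 21.9% of all genes tested. They were 3097 and 4729 against 5055 to 5695 for trachea and 1880 and 2034 against 2058 to 2395 for neurons. Haemocyte markers were low throughout, at 26.3 and 20.6 against 29.8 to 56.0. Among the single genes of these sets, trh, elav and nSyb lay below every WT library in both M1BP RNAi libraries. The others overlapped WT, such as btl with 2433 in M1BP RNAi replicate 3 and 2256 in WT replicate 2. The male-specific RNAs roX1 and roX2 summed to 14.4, 5577 and 1184 in the WT libraries and to 10355 and 6472 in those of M1BP RNAi. The part of other tissues or of the sex of the pupae in the values below was not tested.

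M1BP binds Motif 1, a promoter element with the core GGTCACACT, and the study's supplement lists 18-base matches to the M1BP motif in promoters of respiratory chain genes. Such matches were listed for 8 of the 10 genes, and 7 of them are printed here because they let the promoter letters be set beside the response of each gene. UQCR-C2 and UQCR-Q had none. Sequences are as listed, 5′ to 3′, with capitals marking the 9 bases aligned to the core.
CG4908: agttcGGTCACACTgttg
CG17734: gctctGGTCACACAttgc
RFeSP: agtgcGGTCACACTggtt
UQCR-14: aatacAGACACACTgcac
UQCR-11: aatctGTTCACACAaggt
UQCR-C1: gaaacGGCAACACAattt
Cyt-c1: ctttcAGTACCACTgcca
The gene starts they belong to lie, in dm6, on chromosome arm 2L at 10222657 (CG4908, plus strand) and 1614160 (RFeSP, minus strand), and on 3R at 11243999 (CG17734, minus strand) and 14890231 (UQCR-C1, plus strand). Those of UQCR-11 and Cyt-c1 lie on 3L at 25120709 and 5360211, and that of UQCR-14 on X at 16286288, all on the plus strand.

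The exact core was present in CG4908, RFeSP and UQCR-6.4, which makes 3 of the 8 genes with a listed match, beside 21 of all 79 promoters in that list (26.6%). CG17734 differed from the core by T9A, counted from 1 at the first base of the core. The other matches differed at 2 (UQCR-14, UQCR-11) or 3 (UQCR-C1, Cyt-c1) of the 9 bases. CG4908, RFeSP and UQCR-6.4 (match not printed) thus carried the same 9 letters. CG4908 did not share the response of RFeSP and UQCR-6.4, as their values below show. UQCR-C2, whose mRNA was the lowest relative to WT of the 10, had no listed match. A listed match is a description of letters and not evidence of binding, and a missing one says nothing about M1BP at that gene.

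Of the 10 genes, 3 passed the thresholds used by the study (adjusted p no higher than 0.001, change no smaller than 1.5-fold), and all 3 were lower in M1BP RNAi: UQCR-C2, CG4908 and CG17734. Across all 11282 genes tested, 336 were lower by the same rule (2.98%) and 426 higher (3.78%). The genes were listed with these calls known, so nothing is read from these shares. For 3 of the 10, the same ones, both M1BP RNAi libraries lay below every WT library, as they did for 21.9% of all genes tested, and for 0 of the 10 did both lie above, as they did for 27.1%. The edgeR test called 0 of the 10 at the same thresholds and 8 genes in the whole table. For UQCR-C2, CG4908 and CG17734 its log2 fold changes were -3.37, -3.29 and -1.33. The edgeR adjusted p-values were 0.00139, 0.00122 and 0.00307, above the threshold of 0.001. The median log2 fold change of the 10 was -0.16, and that of all genes tested was 0.02.

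**Figure D1:**
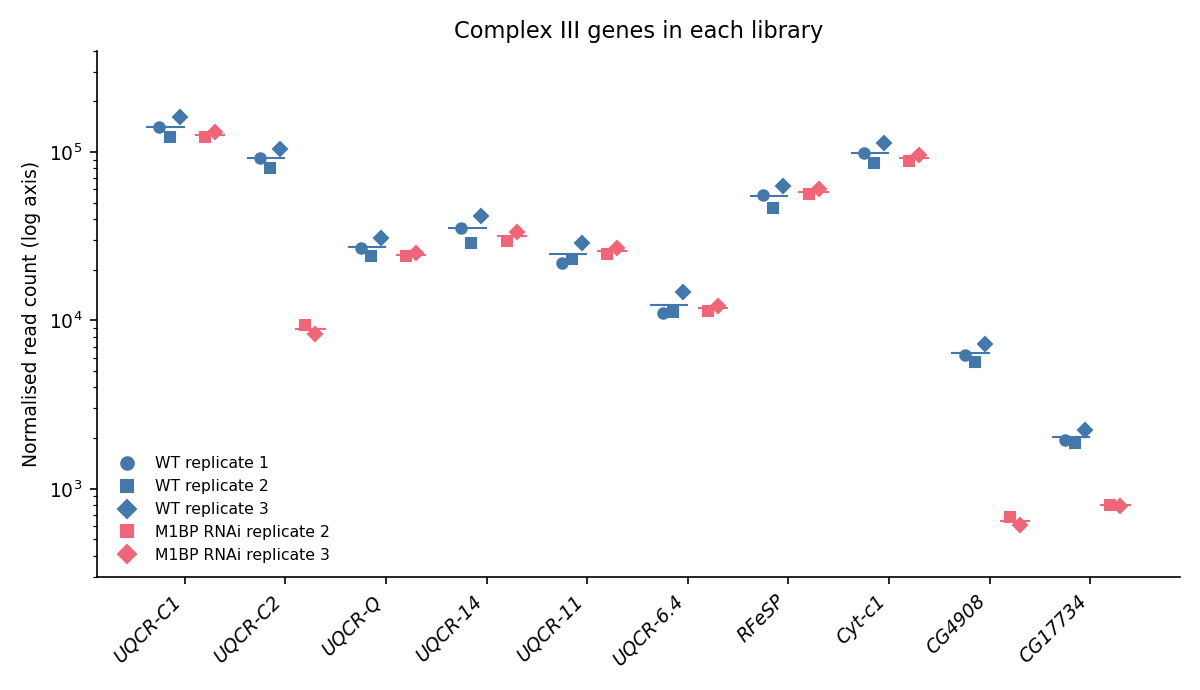
Normalised read count (log axis) of the 10 Complex III genes in each of the 5 libraries. Each symbol is a library (blue, WT; red, M1BP RNAi) and each short line a group mean. In UQCR-C2, CG4908 and CG17734 both M1BP RNAi libraries lie below every WT library, and in the other 7 genes the groups overlap.

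UQCR-C2 (FBgn0250814; 3L, 16584124 to 16586111, plus strand) is the second core protein, a relative of the mitochondrial processing peptidase. It had 92137, 80606 and 104728 normalised counts in WT, against 9459 and 8315 under M1BP RNAi. The highest M1BP RNAi library was thus well under the lowest WT library. The WT mean was 92490 ± 12065 (SD, n = 3), that of M1BP RNAi 8887 ± 809 (SD, n = 2), and the log2 fold change -3.38 (SE 0.15). That left 9.61% of the WT level. By log2 fold change, UQCR-C2 ranked 46th from the lowest of the 11282 genes tested.

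CG4908 (FBgn0032195; 2L, 10222657 to 10224447, plus strand), the Bcs1 gene, had 6197, 5640 and 7293 normalised counts in WT, against 685 and 607 under M1BP RNAi. Again both RNAi libraries lay far below the 3 WT libraries. The means were 6377 ± 841 (SD, n = 3) and 646 ± 55.0 (SD, n = 2), the log2 fold change was -3.30 (SE 0.16), and 10.1% of the WT level was left. The rank from the lowest was 50.

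CG17734 (FBgn0037890; 3R, 11242208 to 11243999, minus strand) had 1961, 1870 and 2232 normalised counts in WT, against 801 and 790 under M1BP RNAi. The groups did not overlap, and the RNAi libraries lay close together. The log2 fold change was -1.34 (SE 0.13), with 39.4% of the WT level left and rank 441 from the lowest.

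Without M1BP RNAi replicate 2, the library with testis transcripts, only M1BP RNAi replicate 3 was left in its group. The log2 fold changes of UQCR-C2, CG4908 and CG17734 were then -3.46, -3.38 and -1.34, so the falls were as large in that single library.

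The remaining 7 structural subunits lay much closer to WT, with log2 fold changes between -0.16 and 0.09, and none of them was called. For each of them the WT and RNAi ranges overlapped. UQCR-C1 (FBgn0038271; 3R, 14890231 to 14892387), the first core protein and the partner of UQCR-C2, had 140173, 122362 and 161327 normalised counts in WT, against 122342 and 131330 under M1BP RNAi. M1BP RNAi replicate 2 was just under the lowest WT library, and M1BP RNAi replicate 3 lay between WT replicates 2 and 1. The log2 fold change was -0.16 (SE 0.15).

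Among the electron carriers, Cyt-c1 (FBgn0035600; 3L, 5360211 to 5362798) had 98581, 86169 and 113368 normalised counts in WT, against 88721 and 96366 under M1BP RNAi. Both RNAi libraries fell inside the WT range, with a log2 fold change of -0.10 (SE 0.15). RFeSP (FBgn0021906; 2L, 1612429 to 1614160), the protein that Bcs1 handles in other species, had 55629, 46241 and 62788 in WT, against 56259 and 60343 under M1BP RNAi. These too were inside the WT range, and the log2 fold change was 0.09 (SE 0.16).

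The small subunits showed the same. UQCR-14 (FBgn0030733; X, 16286288 to 16286988) had 35250, 28973 and 41525 normalised counts in WT, against 29838 and 33439 under M1BP RNAi, and its log2 fold change was -0.16 (SE 0.18). UQCR-Q (FBgn0036728; 3L, 17474761 to 17476124) had 27009, 24188 and 30907 in WT, against 24042 and 25061 under M1BP RNAi (log2 fold change -0.16, SE 0.14). The lower RNAi library of UQCR-Q was just under the lowest WT library, and all RNAi values of UQCR-14 were inside the WT range. UQCR-11 (FBgn0260008; 3L, 25120709 to 25126171), which like mammalian UQCRH is an acidic hinge protein beside cytochrome c1, had 21962, 23051 and 28966 in WT, against 24793 and 27111 under M1BP RNAi (log2 fold change 0.07, SE 0.16). UQCR-6.4 (FBgn0034245), a small subunit named for its mass, had 11058, 11216 and 14660 in WT, against 11429 and 12157 under M1BP RNAi (log2 fold change -0.06, SE 0.17). Both of these had every RNAi value between the lowest and the highest WT library.

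In control muscle these mRNAs were abundant. On the scale of normalised counts per kb of exon, which allows genes to be compared, UQCR-C1 was highest at 86573 ± 11952 (SD, n = 3) and ranked 37 among 15045 genes with counts. UQCR-14 (67398 ± 12000), Cyt-c1 (65334 ± 8953), UQCR-C2 (54858 ± 7156) and RFeSP (49093 ± 7422) followed. The WT ranges of these 5 overlapped from each to the next, but within every single WT library UQCR-C1 was the highest, Cyt-c1 was above UQCR-C2, and UQCR-C2 above RFeSP. UQCR-14 and Cyt-c1 changed places between libraries.

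A step then separated these from UQCR-Q (28070 ± 3461 per kb), UQCR-6.4 (21945 ± 3628) and UQCR-11 (15288 ± 2337), with no overlap between RFeSP and UQCR-Q or between UQCR-6.4 and UQCR-11. The ranges of UQCR-Q and UQCR-6.4 overlapped. The 2 assembly genes were lower still, CG4908 at 3729 ± 492 and CG17734 at 1535 ± 143 per kb, so that the mean of UQCR-C1 was 56.4 times that of CG17734. In M1BP RNAi, UQCR-C2 went from rank 4 to rank 8 of the 10, at 5271 ± 480 per kb (SD, n = 2), below all other structural subunits. CG4908 went from rank 9 to rank 10. Without division by exon length 4 of the 10 genes kept their WT rank, so the order depends on this scaling.

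**Figure D2:**
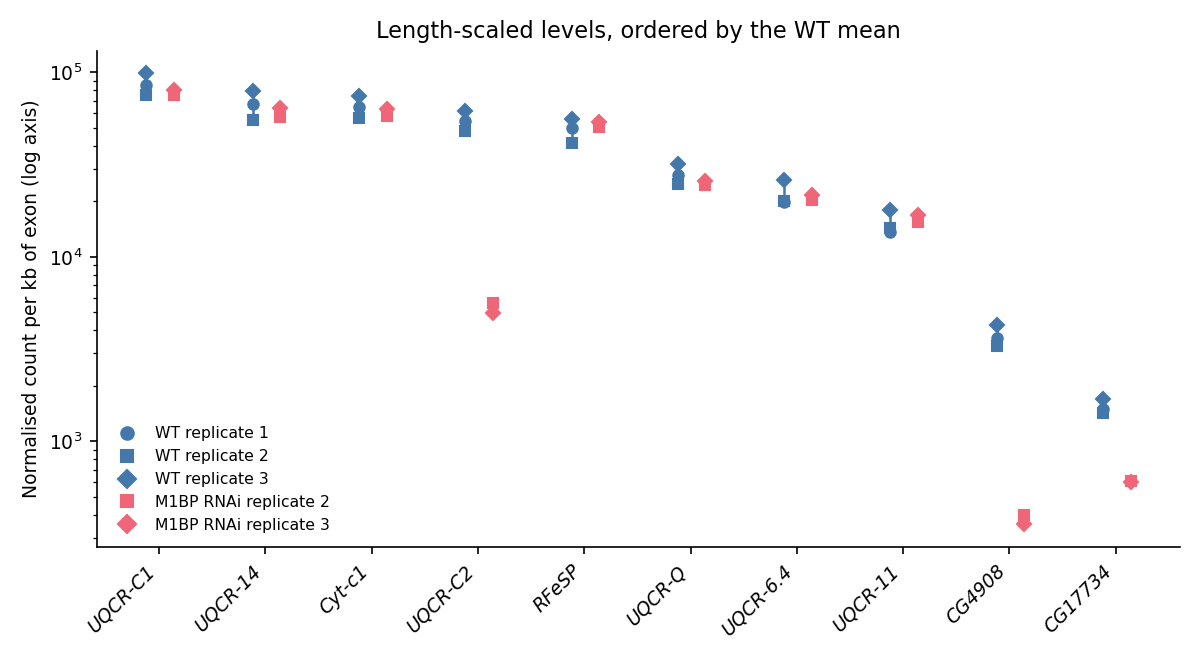
Normalised count per kb of exon (log axis), genes ordered by their WT mean. Each symbol is a library, and vertical lines join the lowest and highest WT library. The 5 most abundant genes lie between 41361 and 98852 in WT, and UQCR-C2 is the one of these 5 whose M1BP RNAi libraries (5610 and 4932) lie below that range.

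The subunit mRNAs moved together between WT libraries. WT replicate 3 was the highest of the 3 for all 10 genes and for all 9 flight muscle markers, beside 37.6% of the genes tested. Ratios to UQCR-C1 within a library varied less than the normalised counts, by an amount that differed between genes: the coefficient of variation over the 3 WT libraries went from 13.7% to 0.107% for Cyt-c1, from 15.3% to 9.36% for UQCR-11 and from 9.32% to 5.53% for CG17734. Per kb of exon, Cyt-c1 over UQCR-C1 was 0.755, 0.756 and 0.754 in WT replicates 1, 2 and 3, although Cyt-c1 itself had 86169 normalised counts in replicate 2 and 113368 in replicate 3. In M1BP RNAi the same ratio was 0.778 and 0.787, above all 3 WT libraries.

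The ratio between the core proteins also varied little in control muscle. UQCR-C2 over UQCR-C1 was 0.636, 0.638 and 0.628 in WT (0.634 ± 0.005, SD, n = 3) and 0.0748 and 0.0613 in M1BP RNAi (0.0681 ± 0.0096, SD, n = 2), a 9.32-fold difference of the means. The complex holds these proteins in equal numbers. UQCR-Q and UQCR-14 held their ratio to UQCR-C1, at 0.325 ± 0.005 and 0.776 ± 0.033 in WT and 0.324 ± 0.007 and 0.778 ± 0.024 in M1BP RNAi. RFeSP over UQCR-C1 was 0.579, 0.552 and 0.568 in WT, against 0.671 and 0.671 under M1BP RNAi, and UQCR-11 over UQCR-C1 was 0.159, 0.191 and 0.182 in WT, against 0.205 and 0.209 under M1BP RNAi. UQCR-6.4 over UQCR-C1 lay between 0.230 and 0.267 in WT, against 0.272 and 0.269 under M1BP RNAi. Of the 6 non-core subunits, 4 (Cyt-c1, RFeSP, UQCR-11 and UQCR-6.4) thus had both RNAi libraries above every WT library on this scale. The remaining 2 overlapped, and in normalised counts all 6 did. The share of all genes lying above WT on this scale was not computed, so nothing is read from this count. In normalised counts that share was 27.1%. The divisor UQCR-C1 itself had a log2 fold change of -0.16. CG4908 over RFeSP, in other species the factor over its substrate, was 0.0762 ± 0.0035 in WT and 0.0073 ± 0.0010 in M1BP RNAi, 10.5-fold apart.

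**Figure D3:**
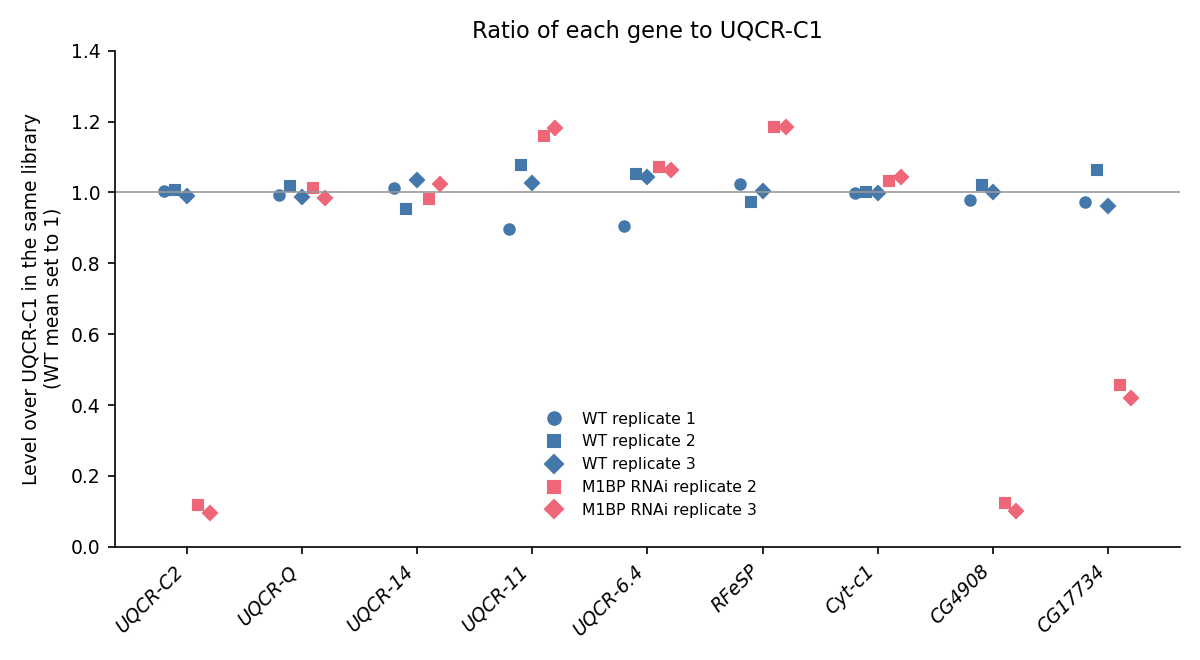
Level of each gene per kb of exon divided by that of UQCR-C1 in the same library, with the WT mean set to 1. Each symbol is a library. UQCR-C2, CG4908 and CG17734 fall to between 0.0967 and 0.456 of their WT ratio in both M1BP RNAi libraries, and RFeSP lies above all 3 WT libraries at 1.185 and 1.184.

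UQCR-C2 made up 19.1%, 19.1% and 18.8% of the counts of the 8 structural genes in WT replicates 1, 2 and 3, against 2.58% and 2.11% under M1BP RNAi. The 8 genes together took between 0.852% and 0.979% of all counts in WT, against 0.873% and 0.863% under M1BP RNAi. The joint share in M1BP RNAi was inside the WT range with UQCR-C2 counted. Without it, the 7 other genes took 0.755%, 0.690% and 0.796% of all counts in WT, against 0.851% and 0.845% under M1BP RNAi. Both RNAi shares were above every WT library. These are shares of raw totals, and in normalised counts the 7 overlapped WT, with a median log2 fold change of -0.10. The 13 protein-coding mitochondrial genes summed to between 3560323 and 4095842 normalised counts in WT, against 1869826 and 3504618 under M1BP RNAi. The part of such changes in these shares was not tested. Set against the summed flight muscle markers, a scaling chosen after seeing the data that shifts log2 fold changes by about 0.26, UQCR-C2 had a log2 difference of -3.11, CG4908 of -3.03 and CG17734 of -1.08. On that scale the 7 other subunits lay between 0.10 and 0.35, so 5 of them changed sign with the scaling.

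**Figure D4:**
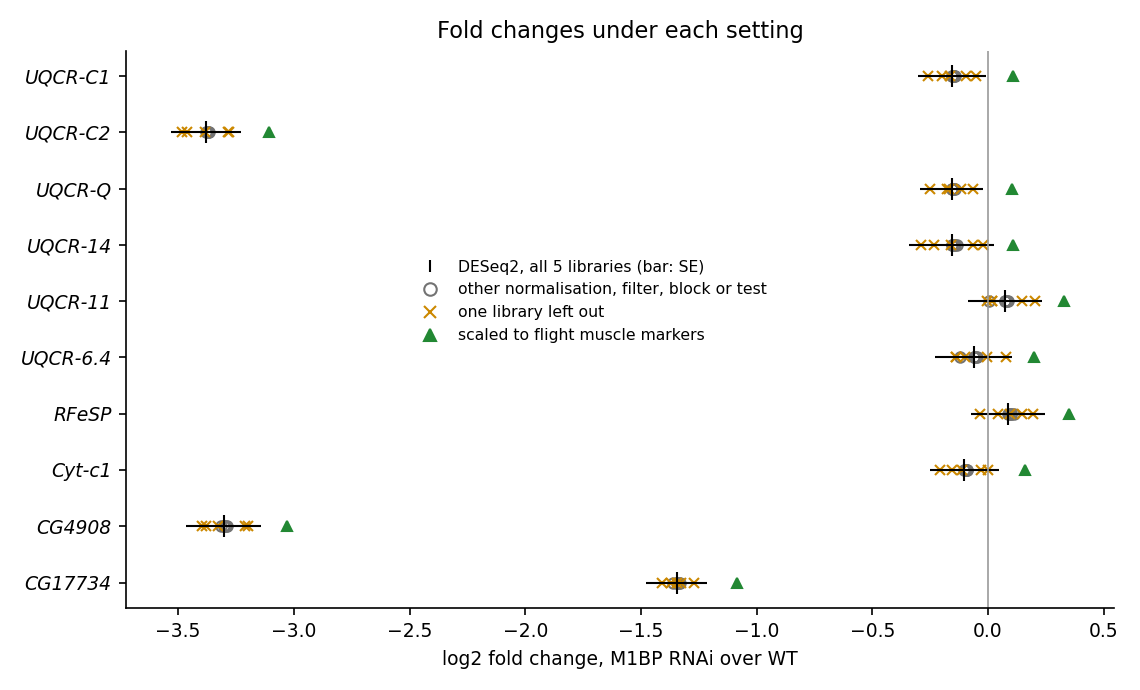
Log2 fold change of M1BP RNAi over WT for each gene. The black tick is the DESeq2 value with its SE, open circles are other normalisations, filters, tests or the replicate block, crosses are fits without 1 library, and green triangles are scaled to the summed flight muscle markers. UQCR-C2 lies between -3.48 and -3.11, CG4908 between -3.40 and -3.03 and CG17734 between -1.41 and -1.08, and the other 7 genes lie near 0.

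Other genes of Complex III, taken from the study's list with the mitochondrially encoded subunit and named paralogues added, gave 1 call among 9 tested, and CG46459 was not analysed here. Among the nuclear ones, the subunit ox had 11336, 10603 and 14183 normalised counts in WT, against 14080 and 14924 under M1BP RNAi (log2 fold change 0.27 ± 0.16 SE, adjusted p 0.222 by DESeq2). The assembly genes CG10075 (Uqcc1), Ttc19, CG42308 (sloth2) and CG15386 had log2 fold changes of 0.04, 0.06, 0.20 and 0.29 and DESeq2 adjusted p-values between 0.0832 and 0.882. CG42308 shares its transcript with another small open reading frame gene, so its counts are uncertain. None of these 4 was called. For CG42308 and CG15386 both M1BP RNAi libraries lay above every WT library, as they did for 27.1% of all genes tested.

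The called gene was CYTB, cytochrome b, the only subunit of the complex made inside the mitochondrion. It had 553231, 567721 and 518497 normalised counts in WT, against 180596 and 302157 under M1BP RNAi, and the groups did not overlap. The log2 fold change was -1.18 (SE 0.23, DESeq2 adjusted p 9.29e-06, edgeR adjusted p 0.0441), and the M1BP RNAi libraries differed widely, with log2 fold changes of -0.84 without replicate 2 and -1.59 without replicate 3. Of the 13 protein-coding genes of the mitochondrial genome, 3 were lower, 1 was higher and 9 were not called. The study, by contrast, reports no effect of M1BP RNAi on these 13 genes other than a transient drop of ND4L. The source of this difference was not tested.

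**Figure D5:**
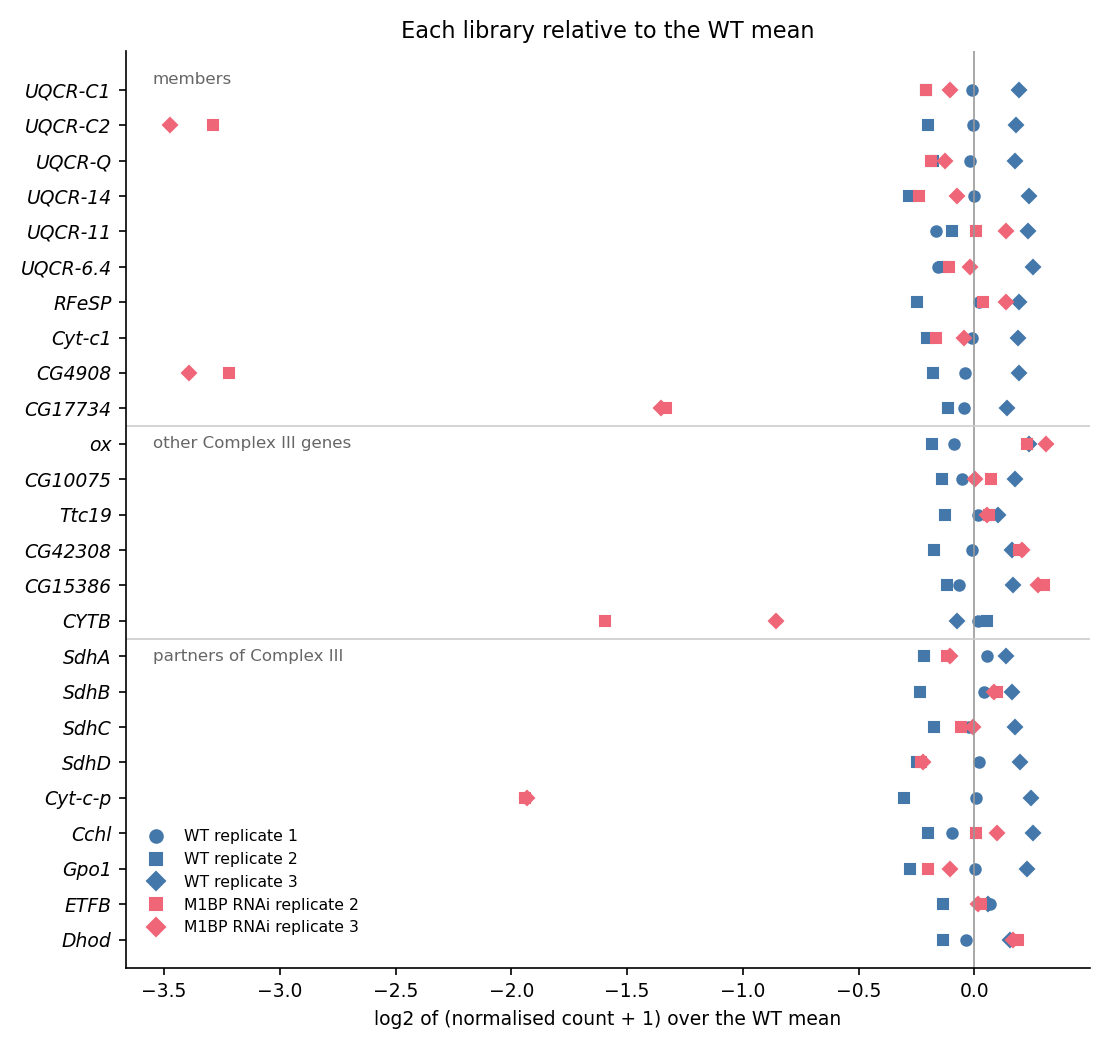
Log2 of the normalised count plus 1 in each library over the WT mean, for the 10 members (top), the other Complex III genes (middle) and the partners of the complex with at least 100 mean normalised counts in WT (bottom). Each symbol is a library. UQCR-C2, CG4908, CG17734, CYTB and Cyt-c-p lie well to the left of WT in both M1BP RNAi libraries. The other genes lie closer to WT, with both M1BP RNAi libraries above every WT library for CG42308, CG15386 and Dhod.

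The paralogues were expressed at very low levels in these muscles. Cyt-c1L, a relative of Cyt-c1, had 2.21, 2.38 and 0 normalised counts in WT, against 54.1 and 3.93 under M1BP RNAi, and UQCR-14L had 9.96, 14.3 and 21.3 in WT, against 56.3 and 22.6 under M1BP RNAi. UQCR-6.4L, named only in the annotation and added after its values were seen, had 29.9 in M1BP RNAi replicate 2 and at most 1.06 elsewhere. Their high values were in the library with the testis transcripts, and none was called (DESeq2 adjusted p 0.0613, 0.200 and 0.265). UQCR-11L had between 49.0 and 144 in WT, against 125 and 91.3 under M1BP RNAi. The part of testis RNA in these values was not tested.

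Among partners of the complex, 1 of 10 tested was called. Cyt-c-p, the cytochrome c that accepts electrons from Complex III in somatic cells, had 7823, 6299 and 9209 normalised counts in WT, against 2022 and 2039 under M1BP RNAi. Both RNAi libraries were under every WT library, with a log2 fold change of -1.94 ± 0.19 SE (adjusted p 3.67e-22 by DESeq2, 0.00468 by edgeR). It was called under 13 of 14 alternative settings and had 26.1% of the WT level left. Some of these settings only loosen a threshold of the main fit, so a call there was bound to stay. Cyt-c-d, the testis form, had 12.2, 1.19 and 11.7 in WT, against 279 and 18.7 under M1BP RNAi. Its high value was again in M1BP RNAi replicate 2, and it was not called (log2 fold change 4.15 ± 1.34 SE, adjusted p 0.0121 by DESeq2).

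Of the enzymes that feed electrons into the ubiquinol pool, none of those tested here was called, and Complex I was not among them. The study reports that, apart from UQCR-C2, the structural subunits it found most affected belonged to Complex I. The Complex II subunits SdhA, SdhB, SdhC and SdhD had log2 fold changes between -0.23 and 0.09, with DESeq2 adjusted p-values between 0.308 and 0.896. The glycerol phosphate dehydrogenase Gpo1 had -0.15 (adjusted p 0.575), the electron transfer flavoprotein gene ETFB 0.02 (adjusted p 0.908) and the dihydroorotate dehydrogenase Dhod 0.18 (adjusted p 0.320), all by DESeq2. For Dhod both M1BP RNAi libraries lay above every WT library, as they did for 27.1% of all genes tested. Cchl, the lyase that attaches haem to cytochrome c, had 0.05 (DESeq2 adjusted p 0.859), and Etf-QO was not analysed here.

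Genes beside the members were looked up to see whether a shared start region went with a shared response. CycC starts 26 bases from UQCR-C1 on the other strand and had 207 normalised counts in WT and 159 in M1BP RNAi (log2 fold change -0.38 ± 0.37 SE, adjusted p 0.480 by DESeq2). CG42239 starts 45 bases from UQCR-6.4 on the other strand and rose from 303 to 788 (log2 fold change 1.38 ± 0.20 SE, adjusted p 7.96e-11 by DESeq2), with all RNAi values above all WT values, while UQCR-6.4 overlapped WT. Its call was lost with the replicate number as a block (log2 fold change 1.31, adjusted p 0.0225 by DESeq2) and in edgeR (adjusted p 0.00643). CG5214 starts 303 bases from CG17734 on the other strand and had a log2 fold change of -0.25 ± 0.15 SE (adjusted p 0.216 by DESeq2), unlike the -1.34 of CG17734. No other member had a gene start within 500 bases.

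Span overlaps with other genes were few. UQCR-C2 shared 4 bases with Syx8, RFeSP 148 with CG14352, UQCR-6.4 227 with POSH, and UQCR-14 lay wholly (701 bases) within CG32576, all on opposite strands. Their WT means, 223, 61.8, 423 and 306 normalised counts, were far below those of the members, and none of the 4 was called. Since it is not given whether counting used the strand, some reads could belong to the other gene.

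The genes whose pattern over the 5 libraries was most like that of UQCR-C2, among 7588 others with a mean of at least 100 normalised counts, were CG4908, l(2)k14505 and HemK1. The measure was the Euclidean distance between log2 ratios to the WT mean, and was 0.119, 0.119 and 0.276. It rests largely on the contrast of M1BP RNAi with WT, by which CG4908 was chosen, so nothing is read from its place. The second, l(2)k14505, had 4398, 4091 and 5303 normalised counts in WT, against 450.0 and 392 under M1BP RNAi. HemK1, in mammals and bacteria a methyltransferase of translation release factors, had 1803, 1467 and 1779 in WT, against 202 and 149 under M1BP RNAi.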

How the data were processed

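The deposited counts are whole numbers of reads over the exons of each gene, which the authors made from uniquely aligned reads on dm6 with featureCounts (Subread 2.0.3, per the submitters' processing notes), together with the exon length of each gene. The aligner, annotation release and strand setting are not given in the sources used here. RNA was 100 ng per library, amplified with 13 PCR cycles. A second deposited table holds the authors' own DESeq2 comparison (log2 fold changes and p-values), of which only the gene symbols were used. All count columns were mapped (0 left over).

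Counts of 17494 genes were fitted with the Wald test of DESeq2 1.42.0 in R 4.3.3 on all 5 libraries. The default filters of DESeq2 were on, and p-values were adjusted by Benjamini-Hochberg over the 11282 genes that passed them. As in the study's methods, a gene was called where the adjusted p was no higher than 0.001 and the change no smaller than 1.5-fold. Levels between genes were compared per kb of exon. Alternatives were edgeR 4.0.16 (quasi-likelihood), TMM factors, other filters and thresholds, a block for the replicate number, and fits without each library. Named genes were the 10 members, the other Complex III and partner lists, M1BP, the 3 genes most like UQCR-C2 and neighbours overlapping a member or starting within 500 bases of it. The members and lists were chosen with earlier results of these data known.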

Additional observations from a re-analysis of the deposited data

How the results depend on the processing

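At the same thresholds edgeR called 0 of the 10 members, 0 other Complex III genes, 0 partners and 8 genes in all, against 3, 1, 1 and 762 by DESeq2, and at an unadjusted p under 0.05 it gave 3 of the members and 3062 genes in all (4040 by DESeq2). An adjusted p of 0.05 gave 1799 calls over all genes and 2 partners, Cyt-c-d being added. Leaving out the mitochondrial genome left 0 calls among other Complex III genes, since CYTB was then not tested. Without 1 library the calls over all genes ranged from 319 (without M1BP RNAi replicate 2) to 937 (without M1BP RNAi replicate 3) and were 491 without WT replicate 2, the members' stayed at 3, and the partners' ranged from 1 to 2, with 2 without M1BP RNAi replicate 3. The replicate numbers were not shown to pair the samples: correlations of deviations were -0.26 for number 2 and -0.12 for number 3 over 7589 genes, and the labels give no shared origin. With the replicate number as a block, calls over all genes were 315, 236 of them shared with the fit without it, and calls among members (3), other Complex III genes (1) and partners (1) were as before, while those of M1BP and CG42239 were lost. Scaling to the flight muscle markers, added after seeing the data, moved the members' median from -0.16 to 0.11. Without division by exon length UQCR-C2 over UQCR-C1 in WT was 0.655 in place of 0.634, and 4 of the 10 genes kept their WT rank. The Motif 1 core was in 3 listed matches, and in 4 with up to 1 mismatch. The search of whole promoters, its strand alternative and the other promoter elements were not run, since no genome sequence was used here. Depth was high for all 10 genes, and the number of M1BP RNAi libraries (2, 1 of them with testis transcripts) limits what can be said of the 7 uncalled subunits.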
